A study of Mus musculus with 12 samples.

Results

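The genes described here are 9 genes of the nuclear lamina and the inner nuclear membrane, Lmnb1, Lmnb2, Lmna, Lbr, Emd, Tmpo, Banf1, Sun1 and Sun2. They were taken by name from 48709 genes in each of 2 deposited expression tables, and all 9 were found in both. The set was chosen by the RPKM values of Lmnb1, which were higher in all 3 miR184 libraries than in their controls, so the miR184 comparison is given for these genes as a description, with no test. Hematopoietic stem and progenitor cells (HSPC) from the bone marrow of wild-type (WT) mice received miR184, miR499 or control miR by transfection, and RNA of the sorted cells was sequenced 2 days later. All 12 libraries are from WT cells that underwent a transfection, so no library of cells without transfection is among them. The miR184 group has 3 libraries, set against controls 1 to 3 of its own table, and the miR499 group has 3 libraries, set against controls 4 to 6 of the other table. The labels do not say whether replicates came from separate mice or cultures, so a p-value reflects the spread among these libraries alone, which may be technical.

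Lamins are intermediate filament proteins that form a meshwork under the inner nuclear membrane. Lmnb1 and Lmnb2 encode B-type lamins, which stay attached to the membrane through a lipid anchor, and Lmna encodes lamins A and C, whose level rises with the stiffness of tissues and is low in many blood progenitors. Lbr, the lamin B receptor, Emd (emerin) and Tmpo (LAP2) tether lamina and chromatin to the inner membrane, Banf1 encodes a small DNA-bridging protein bound by emerin and LAP2, and Sun1 and Sun2 span the inner membrane and couple the lamina to the cytoskeleton through nesprins. In blood, Lbr is known for its part in giving neutrophils their lobed nuclei.

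The mature miRNAs are shown because a seed match in a 3' untranslated region (UTR) is the usual mark of a direct target. The labels do not say which arm was transfected, so both arms are given from RefSeq (GRCm38.p6), with the seed, bases 2 to 8, in capitals.
miR-184-3p: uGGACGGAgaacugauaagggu
miR-184-5p: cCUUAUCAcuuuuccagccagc
miR-499-5p: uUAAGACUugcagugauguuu
miR-499-3p: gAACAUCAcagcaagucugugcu
The 4 seeds differ from each other. In the longest annotated 3' UTR of each of the 9 genes (GENCODE M21), 374 bases in Banf1 to 1905 bases in Tmpo, an 8mer or 7mer match to miR-184-3p (TCCGTCCA, TCCGTCC or CCGTCCA on the sense strand) was present in 0 of 9 genes, against 4.88% of 9672 tested genes with an annotated 3' UTR. Matches to miR-184-5p (TGATAAGA, TGATAAG or GATAAGA) were in 0 of 9 genes, against 10.4%. Matches to miR-499-5p (AGTCTTAA, AGTCTTA or GTCTTAA) were also in 0 of 9 genes, against 17% of 9103 genes. Lbr held the only match of the set, a 7mer to miR-499-3p (TGATGTTA, TGATGTT or GATGTTA), which 18.5% of the 9103 genes carry. It lies at bases 1466 to 1472 of an Lbr 3' UTR of 1523 bases (chromosome 1, minus strand, GRCm38) and is shown in capitals within 30 bases.
Lbr: tgtttttaattTGATGTTtggcaagctttg
The search covers these letters in these windows only.

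Values are RPKM, the reads of a gene per kilobase of its exons, scaled to the reads of the library. Levels of different genes can thus be compared, subject to the exon lengths used in the counting. Library totals recovered from the values ran from 31990355 to 46601798 reads. For a transcript of 2000 bases, 3 reads were worth 0.0322 to 0.0469 RPKM, and the lowest read count of any of the 9 genes was 292, for Lmna in miR499 1. All 13 HSPC markers were above 0, with Kit at 8.17 to 57.1 and Cd34 at 53.6 to 122 RPKM over the 12 libraries, and Procr the lowest at 0.648 to 1.73. Of 7 stromal and endothelial markers 6 were under 1 RPKM in all libraries, with Col3a1 at 0, and Pecam1 had 4.15 to 19.4 RPKM. Of 8 lymphoid markers 3 were under 1 RPKM in all libraries, among them the T cell gene Cd3e at or under 0.0156 RPKM, while Nkg7 had 249 to 474 and Cd79b up to 23.6 RPKM. Cd3g and Cd79a exceeded 1 RPKM only in miR184 3, at 1.43 and 1.66 RPKM, and Il7r had 0.653 to 6.30 RPKM. Primary granule genes of neutrophil precursors such as Mpo (1167 to 4312 RPKM) were high. Fewer genes were detected in miR184 3 (13675) than in the other 5 libraries of its table (16702 to 17136). The total RPKM was lower in miR499 3 (391857) than in the remaining 5 of its table (465018 to 483368). Values without these libraries are given for each of the 9 genes whose change then takes the other sign, and for some other results.

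Lmnb1 (chromosome 18, 56707813 to 56753424, plus strand, mm10) was 2.26 times as high with miR184 as in the controls of its table. Its level was 29.0, 28.9 and 35.2 RPKM in miR184 1 to 3, against 15.4, 14.4 and 11.4 RPKM in controls 1 to 3. The groups did not overlap, and the lowest miR184 library lay well above the highest control. The means were 31.0 ± 3.62 RPKM with miR184 and 13.7 ± 2.07 RPKM in controls (SD, n = 3 each), and the log2 change was 1.13 ± 0.12 (SE) on the log2(RPKM + 1) scale. The level rests on 3362 to 4489 reads in the miR184 libraries and 1464 to 2119 reads in the controls, and no annotated exon of another gene overlaps those of Lmnb1. Without miR184 3, the library with the highest level, the log2 change was 1.03 ± 0.11. A total of 7.30% of the 10372 genes tested were likewise higher in all 3 miR184 libraries than in any of their controls and 4.41% were lower in the same sense, and by limma 0 genes (0%) passed an adjusted p of 0.05, with 475 (4.58%) at an unadjusted p under 0.05 and 0 by limma voom on recovered reads. Lmnb1 was the gene the set was chosen for, so nothing is read from its place among them.

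The other lamin genes stayed near their control levels with miR184. Lmnb2 (chromosome 10, 80901203 to 80918245, minus strand) had 23.3, 22.6 and 22.0 RPKM in miR184 1 to 3, against 22.4, 22.0 and 23.7 RPKM in controls 1 to 3. The groups overlapped, and the log2 change was -0.0047 ± 0.06 (SE). Lmna (chromosome 3, 88480147 to 88509956, minus strand) had 3.48, 3.06 and 2.04 RPKM with miR184, against 2.73, 2.52 and 2.64 RPKM in controls. Here miR184 1 and 2 lay above the controls and miR184 3 below them, so the log2 change was 0.07 ± 0.15 with all libraries and 0.23 ± 0.08 without miR184 3. The tables give 1 value for Lmna, in which lamin A and lamin C cannot be separated.

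Lmnb1 was the largest part of the lamin transcripts in miR184 libraries, and Lmnb2 in their controls. The set was chosen by Lmnb1 in these libraries and Lmnb2 stayed near its control levels. A shift of share, ratio and sum with miR184 is thus built in. Lmnb1 held 51.9%, 53.0% and 59.4% of the summed RPKM of the 3 lamin genes in miR184 1 to 3, against 37.9%, 36.9% and 30.2% in controls 1 to 3. In every miR184 library Lmnb1 exceeded Lmnb2, with a ratio of 1.24 to 1.60, and in every control of that table Lmnb2 was the higher, with a ratio of 0.481 to 0.684. The sum over the 3 genes was 54.5 to 59.3 RPKM with miR184 and 37.7 to 40.5 RPKM in controls. In controls 4 to 6 of the other table, which also received control miR, Lmnb1 held 46.8% to 50.6% of the lamin RPKM, above the share in controls 1 to 3. Lmna was the smallest of the 3 everywhere, at 3.44% to 14.2% of the sum over all 12 libraries.

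**Figure D1:**
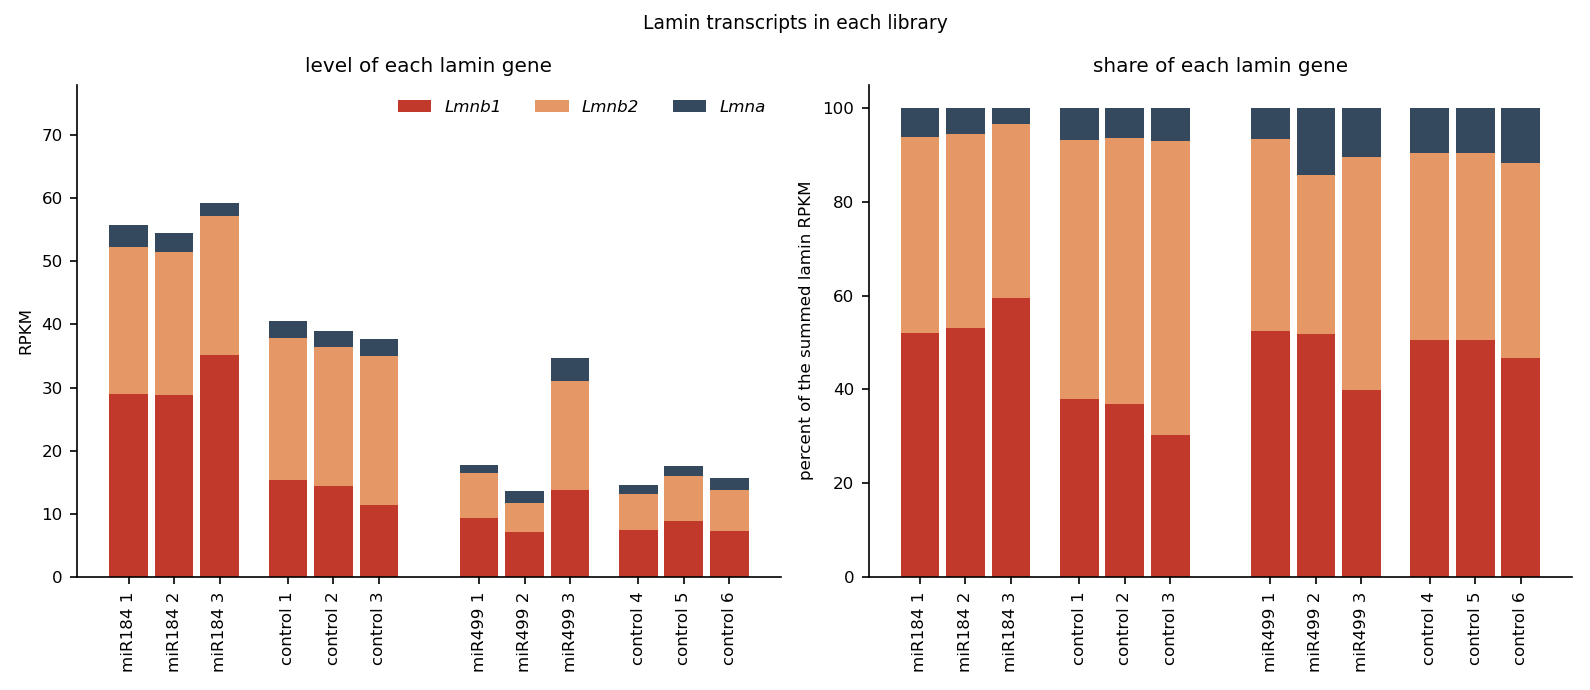
Lamin transcripts in each of the 12 libraries, as RPKM of Lmnb1, Lmnb2 and Lmna stacked (left panel) and as percent of their sum (right panel), treated libraries left of the controls of their table. The Lmnb1 part is 51.9% to 59.4% in the miR184 libraries and 30.2% to 37.9% in controls 1 to 3, a difference built in by the choice of Lmnb1. The sum in miR499 3, 34.7 RPKM, stands above the 13.7 to 17.7 RPKM of the other 5 libraries of its table.

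Among the proteins of the inner membrane and their partner Banf1, the groups overlapped in all 4 genes with miR184. Lbr (chromosome 1, 181815335 to 181843046, minus strand), a receptor for B-type lamins that is also a sterol reductase, had 129, 126 and 141 RPKM in miR184 1 to 3, against 128, 137 and 132 RPKM in controls 1 to 3. Its log2 change was -0.0050 ± 0.06 (SE). Tmpo (chromosome 10, 91147571 to 91181315, minus strand) had 57.5, 55.5 and 47.4 RPKM with miR184, against 56.2, 56.0 and 56.5 RPKM in controls. The controls lay close together, with miR184 1 above them and miR184 2 and 3 below, miR184 3 by the most. Emd (chromosome X, 74254687 to 74261548, plus strand) had 14.6, 11.8 and 22.1 RPKM with miR184, against 16.6, 12.5 and 13.4 RPKM in controls, so its highest value was again in miR184 3. Its log2 change was 0.15 ± 0.21 with all libraries and -0.09 ± 0.13 without miR184 3. Banf1 (chromosome 19, 5364638 to 5367168, minus strand), the most abundant of the 9 transcripts, had 355, 349 and 391 RPKM with miR184, against 381, 348 and 344 RPKM in controls. In GENCODE M21 its exons share 428 bases with the opposite-strand gene Eif1ad, which reached at most 58.2 RPKM. The length recovered from the values was 820 bases, against 1496 in GENCODE M21, so the exons counted may leave out the shared bases. Use of strand in the counting is not given, so some reads of the 2 genes may not be told apart.

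The SUN genes overlapped between groups too. Sun1 (chromosome 5, 139200637 to 139249840, plus strand) had 8.25, 7.48 and 7.30 RPKM in miR184 1 to 3, against 7.87, 7.58 and 8.16 RPKM in controls 1 to 3. Sun2 (chromosome 15, 79724070 to 79742536, minus strand) had 4.06, 5.10 and 2.93 RPKM with miR184, against 5.79, 3.52 and 4.20 RPKM in controls, a wide spread in each group. Over the 8 genes other than Lmnb1 the log2 changes ran from -0.13 to 0.15 with all libraries and from -0.09 to 0.23 without miR184 3. With miR184, 4 of the 9 genes had a positive and 5 a negative change, with a median of -0.0047, beside 0.0022 over all genes tested, and 5 of the 9 changes had the other sign without miR184 3. Beside Emd, these were Tmpo (-0.08 ± 0.08, then 0.0067 ± 0.04) and Banf1 (0.03 ± 0.07, then -0.02 ± 0.06). The others were Sun2 (-0.13 ± 0.20, then 0.04 ± 0.17) and Lmnb2 (-0.0047 ± 0.06, then 0.01 ± 0.05). In 4 genes miR184 3 was the highest and in 4 genes the lowest of the 6 libraries, which was the case for 34.9% and 35.9% of all genes tested.

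**Figure D2:**
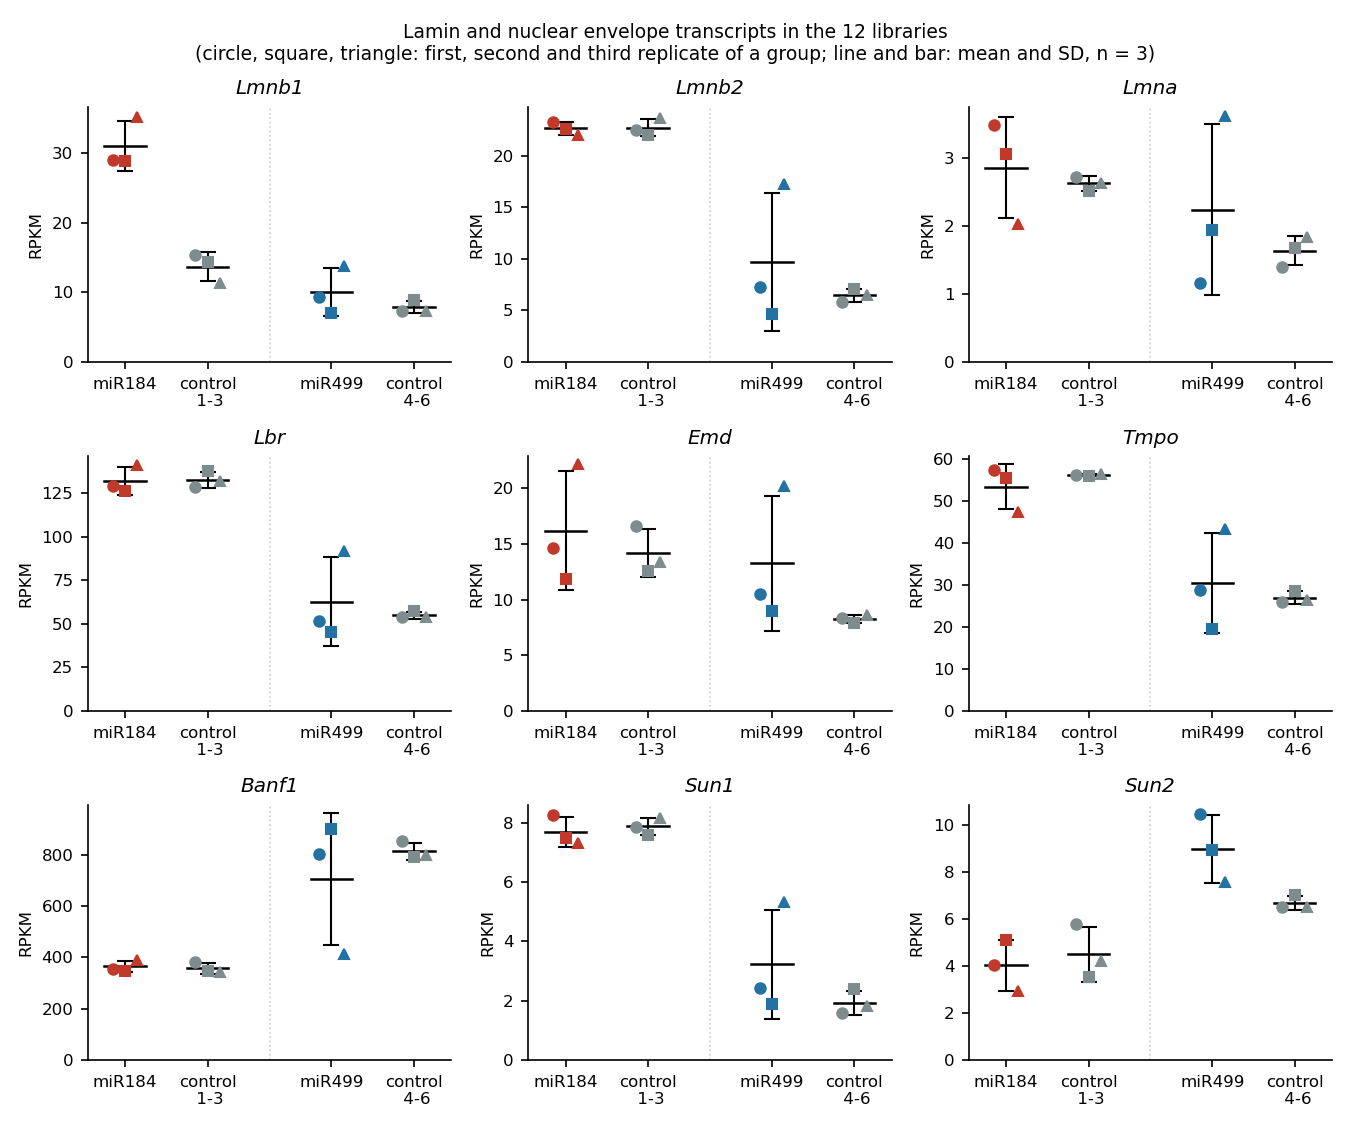
RPKM of the 9 genes in all 12 libraries, each panel 1 gene, with the mean and SD of each group of 3; circles, squares and triangles are the replicates of a group in number order and the vertical axes start at 0. Only Lmnb1 has all 3 miR184 libraries apart from controls 1 to 3, and the triangle of miR499 3 lies away from the other 5 libraries of its table in most panels.

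With miR499, 0 of the 9 genes passed the test by limma, as did 0 of all 9815 genes tested (0%), with 992 genes (10.1%) at an unadjusted p under 0.05 and 0 passing by limma voom. Library miR499 3 stood apart in most of the 9 genes. It was the highest of the 6 libraries of its table in 7 of the 9 genes and the lowest in 1, Banf1, where 51.0% and 26.8% of all genes tested had it highest or lowest. The median log2 change of the 9 genes was 0.28 with all libraries and 0.04 without miR499 3, beside -0.0072 and -0.06 over all genes tested, and 5 of the 9 changes had the other sign without it.

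Each of the 3 lamin genes had its highest level of that table in miR499 3. Lmnb1 had 9.28, 7.09 and 13.8 RPKM in miR499 1 to 3, against 7.39, 8.93 and 7.32 RPKM in controls 4 to 6. Libraries miR499 1 and 3 lay above the controls and miR499 2 below them, so the groups overlapped. The log2 change was 0.28 ± 0.24 (SE; adjusted p = 0.616, limma), or 0.04 ± 0.13 without miR499 3 (adjusted p = 0.831, limma). Whether the changes of Lmnb1 with miR184 and with miR499 differ was not tested, because the first was used to choose the genes. Lmnb2 had 7.23, 4.65 and 17.3 RPKM with miR499, against 5.83, 7.04 and 6.50 RPKM in controls. Its log2 change was 0.35 ± 0.40 with all libraries and -0.13 ± 0.16 without miR499 3. Lmna had 1.16, 1.95 and 3.62 RPKM with miR499, against 1.40, 1.68 and 1.84 RPKM in controls, so miR499 1 was the lowest and miR499 3 the highest of the 6.

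Lbr, Tmpo and Emd also had their highest level of that table in miR499 3, and Banf1 its lowest. Lbr, the one gene with a seed match, had 51.4, 45.1 and 91.8 RPKM in miR499 1 to 3, against 54.0, 57.3 and 53.7 RPKM in controls 4 to 6. Libraries miR499 1 and 2 lay below all controls and miR499 3 above them. Without miR499 3 the log2 change was -0.19 ± 0.08 (adjusted p = 0.128, limma), and it was 0.12 ± 0.26 with all libraries. Tmpo had 28.9, 19.6 and 43.3 RPKM with miR499, against 25.9, 28.7 and 26.5 RPKM in controls. Emd had 10.5, 9.02 and 20.2 RPKM with miR499, against 8.38, 7.91 and 8.59 RPKM in controls, and its groups did not overlap. The log2 change of Emd was 0.54 ± 0.28 (adjusted p = 0.506, limma) with all libraries and 0.21 ± 0.10 (adjusted p = 0.157, limma) without miR499 3. Banf1 had 803, 902 and 415 RPKM with miR499, against 853, 790.4 and 799.5 RPKM in controls, and miR499 1 and 2 were not below all controls.

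Sun2 differed in the same direction in all 3 miR499 libraries, miR499 3 included. It had 10.5, 8.95 and 7.59 RPKM in miR499 1 to 3, against 6.50, 7.03 and 6.52 RPKM in controls 4 to 6. The 3 miR499 libraries all lay above the 3 controls, with means of 9.01 ± 1.45 RPKM and 6.68 ± 0.304 RPKM (SD, n = 3 each), a ratio of 1.35. The log2 change was 0.37 ± 0.15 (SE), with an unadjusted p of 0.047 and an adjusted p = 0.491 by limma, so it did not pass. Here miR499 3 was the treated library nearest to the controls, and without it Sun2 rose by 0.48 ± 0.10 (adjusted p = 0.018, limma), and by 0.51 ± 0.09 with median-ratio scaling added (adjusted p = 0.020, limma). With a replicate block on 4 libraries, which also lacks miR499 3, the change was 0.46 ± 0.17 and did not pass (adjusted p = 0.104, limma). It was the only 1 of the 9 genes to pass without miR499 3, in a fit where 17.1% of all genes tested passed and 3.47% rose. Sun1 had 2.44, 1.89 and 5.33 RPKM with miR499, against 1.59, 2.39 and 1.81 RPKM in controls, with overlapping groups. Sun2 exceeded Sun1 with a ratio of 4.29, 4.74 and 1.42 in miR499 1 to 3, against 4.08, 2.95 and 3.60 in controls 4 to 6. Emd and Sun2 were thus the 2 of 9 genes higher without overlap, beside 11.4% of all genes tested (24.2% in either direction). In GENCODE M21, Sun2 shares 147 exon bases with an antisense gene, Gm16575, which stayed far below it.

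**Figure D3:**
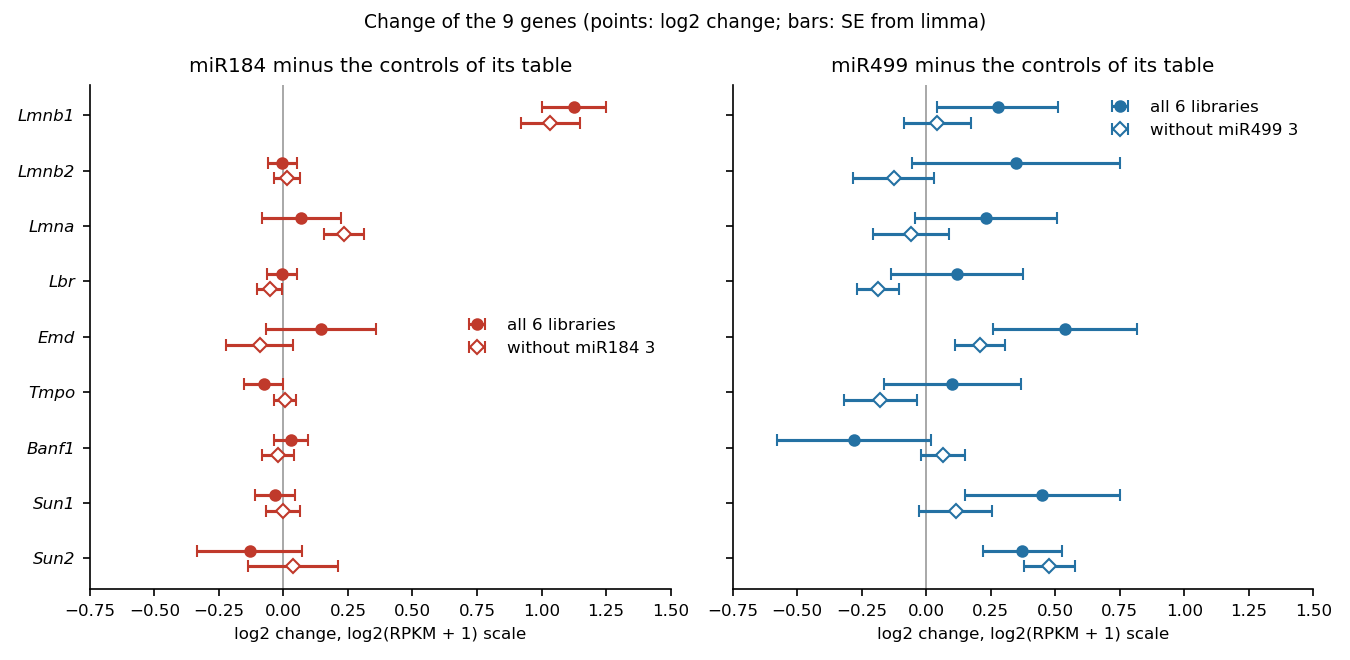
Log2 change of the 9 genes on the log2(RPKM + 1) scale with its SE from limma, for miR184 against controls 1 to 3 (left panel) and miR499 against controls 4 to 6 (right panel), with all 6 libraries (filled circles) and without miR184 3 or miR499 3 (open diamonds). Lmnb1 stands at 1.13 and 1.03 with miR184, and with miR499 most genes move toward or past 0 without miR499 3 while Sun2 goes to 0.48.

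Levels of the 9 genes also differed between the control libraries of the 2 tables, which were deposited as separate tables and are set side by side here without a test. Controls 1 to 3 and controls 4 to 6 did not overlap in any of the 9 genes, as in 84.7% of the 9815 genes tested with miR499. Controls 1 to 3 had the higher mean in 7 genes, by a factor of 4.08 for Sun1, 3.52 for Lmnb2, 2.41 for Lbr, 2.08 for Tmpo, 1.74 for Lmnb1, 1.71 for Emd and 1.60 for Lmna. Banf1 and Sun2 were the exceptions, with 358 and 4.50 RPKM in controls 1 to 3 and 814 and 6.68 RPKM in controls 4 to 6. Library miR499 3 lay between the 2 control means in 5 of the 9 genes, beside 62.3% of all genes, and its 13.8 RPKM of Lmnb1 was close to the 13.7 RPKM of controls 1 to 3. Of the 13 HSPC markers 9 were higher in controls 1 to 3 without overlap, 1 was lower (Cd48, 207 to 230.5 RPKM in controls 1 to 3 and 304 to 336 RPKM in controls 4 to 6), and 3 overlapped. Kit, the stem cell factor receptor gene, was among the 9, at 53.8 to 57.1 RPKM in controls 1 to 3, 8.17 to 9.24 RPKM in controls 4 to 6 and 34.3 RPKM in miR499 3. The summed RPKM of the 13 HSPC markers was 709.8 to 825.0 in controls 1 to 3 and 617 to 687 in controls 4 to 6. In the mast cell and basophil list 1 gene was higher and 5 lower in controls 1 to 3 without overlap, and in the neutrophil list 2 and 4. These counts were 4 and 3 for megakaryocyte markers, 5 and 2 for monocyte and macrophage markers, and 4 and 2 for erythroid markers. They were 2 and 2 for lymphoid markers, and 2 and 0 for stromal and endothelial markers. Between miR184 and controls 1 to 3, 3 of 9 tested monocyte and macrophage markers were higher and 2 lower without overlap. Of all genes tested 7.30% were higher and 4.41% lower in this sense. The counts were 2 and 0 of 8 megakaryocyte, 1 and 1 of 13 HSPC, 1 and 0 of 3 lymphoid and 0 and 1 of 4 erythroid markers. They were 0 and 0 in the other lists. The part of such markers in the differences, or in the change of Lmnb1, was not tested. In bulk RNA, fewer cells of a type and less RNA per cell cannot be told apart. Labels of controls 4 to 6 bear a mark absent from those of the miR499 libraries, so any batch behind it cannot be told apart from the treatment.

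The order of the levels was alike at the top in all 4 groups, with Banf1 above Lbr and Lbr above Tmpo. With miR184 they were followed by Lmnb1 at 31.0, Lmnb2 at 22.6, Emd at 16.2, Sun1 at 7.68, Sun2 at 4.03 and Lmna at 2.86 RPKM, where the ranges of Lmnb2 and Emd, and of Sun2 and Lmna, overlapped. In controls 1 to 3 Lmnb2 at 22.7 RPKM followed Tmpo, before Emd at 14.2 and Lmnb1 at 13.7 RPKM, whose ranges overlapped. In controls 4 to 6 Emd at 8.30 and Lmnb1 at 7.88 RPKM overlapped, Sun2 at 6.68 and Lmnb2 at 6.46 RPKM overlapped, and so did Sun1 at 1.93 and Lmna at 1.64 RPKM. With miR499 each range from Tmpo through Emd, Lmnb1, Lmnb2 and Sun2 overlapped the next, and Sun1 overlapped Lmna, with wide ranges that hold miR499 3.

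Among other genes of the nuclear envelope, 0 genes of any list passed by limma with miR184. Of 5 lamin processing enzyme genes 2 were higher and 3 lower, with Icmt, which methylates the anchor end of lamins, at 0.24 ± 0.19 and Fnta, a subunit of the farnesyl transferase, at -0.21 ± 0.16. Without miR184 3 the log2 change was 0.0023 for Icmt and -0.0067 for Fnta. Of 17 genes listed as other inner membrane and LEM proteins 15 had a negative change, with a median of -0.08. Without miR184 3 the change was negative in 12 of 17, with a median of -0.0176. The list also holds genes of neither kind, such as the kinase gene Vrk1 and the torsin gene Tor1a. A negative change was found in 5123 of all 10372 genes tested, and in 4938 without miR184 3. Lemd3, which encodes the inner membrane protein MAN1, had 1.34 ± 0.251 RPKM with miR184 and 1.74 ± 0.165 RPKM in controls (SD, n = 3 each), and Cnep1r1 had 11.1 ± 0.198 and 12.2 ± 0.484 RPKM in the same groups. The log2 change of Lemd3 was -0.23 ± 0.12, or -0.14 ± 0.08 without miR184 3. Of 27 nucleoporin genes 14 were higher and 13 lower, with a median of 0.00021, and 13 higher and 14 lower with median-ratio scaling. Nup153, which encodes a lamin-binding protein of the pore's nuclear basket, had a log2 change of 0.18 ± 0.07, and Nup155, of the pore's inner ring, one of -0.20 ± 0.09, or -0.12 ± 0.07 without miR184 3. Among nesprins only Syne3 was high enough to be tested, with a log2 change of 0.02 ± 0.10, or -0.05 ± 0.07 without miR184 3.

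Cell cycle genes were followed beside them, because levels of Lmnb1 and Tmpo are known to vary with proliferation. With miR184, 11 of 25 S phase genes were higher, with a median of -0.0022, and 16 of 25 without miR184 3, with a median of 0.02. Among 25 genes of G2 and M phase, 17 were lower, with a median of -0.06, and 23 were lower without miR184 3, with a median of -0.05. In 8 of these 25 genes all 3 miR184 libraries lay below all 3 controls, beside 4.41% of all genes tested. Of all 10372 genes tested, 5249 were higher and 5123 lower with all libraries, and 5431 higher and 4938 lower without miR184 3. Chaf1a, which encodes a histone chaperone subunit, had 31.7 ± 3.15 RPKM with miR184 and 22.7 ± 0.915 RPKM in controls (SD, n = 3 each), and the cyclin gene Ccne1 had a log2 change of 0.28 ± 0.10. Nusap1 and Ccnb1, genes of mitosis, had log2 changes of -0.16 ± 0.06 and -0.13 ± 0.05. The summed level of the 25 S phase genes was 1497 to 1523 RPKM with miR184 and 1447 to 1529.9 RPKM in controls, and these ranges overlapped.

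In the miR499 comparison no gene of these lists passed with all libraries, and calls appeared without miR499 3. In that fit 1681 of 9815 genes passed, 341 higher and 1340 lower, or 466 higher and 910 lower with median-ratio scaling added. Of the 16 tested genes in the list of other inner membrane and LEM proteins 4 fell and 0 rose. The list also holds genes of neither kind, and both genes named here are such. They were Vrk1, a kinase of the Banf1 protein, at -0.38 ± 0.07 (adjusted p = 0.012, limma) and Tor1a, the torsin gene of the envelope lumen, at -0.32 ± 0.09 (adjusted p = 0.047, limma). Of the 5 lamin processing genes 2 fell, among them Fnta at -0.35 ± 0.08 (adjusted p = 0.023, limma), and Rce1, which trims the anchor end, had -0.23 ± 0.08 (adjusted p = 0.067, limma). Of the 27 nucleoporin genes 10 fell and 1 rose. The riser was Nup155 at 0.39 ± 0.10 (adjusted p = 0.028, limma), and Nup35 fell by 0.36 on the log2 scale with an SE of 0.08 (adjusted p = 0.025, limma). Of 25 S phase genes 12 fell, such as Ccne2 at -0.45 ± 0.08 (adjusted p = 0.012, limma) and the nucleotide reductase gene Rrm2 at -0.41 ± 0.08 (adjusted p = 0.016, limma). Of 25 G2 and M phase genes 9 fell, such as Ccnb1 at -0.49 ± 0.09 (adjusted p = 0.015, limma) and Nusap1 at -0.44 ± 0.07 (adjusted p = 0.011, limma). These counts stand beside 13.7% of all genes that fell and 3.47% that rose in that fit. With median-ratio scaling added, 3 genes of the inner membrane and LEM list fell. So did 1 processing, 8 nucleoporin, 9 S phase and 7 G2 and M phase genes, and 2 nucleoporin genes rose. Of the 9 genes 5 were higher and 4 lower in that fit, and only Sun2 passed.

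**Figure D4:**
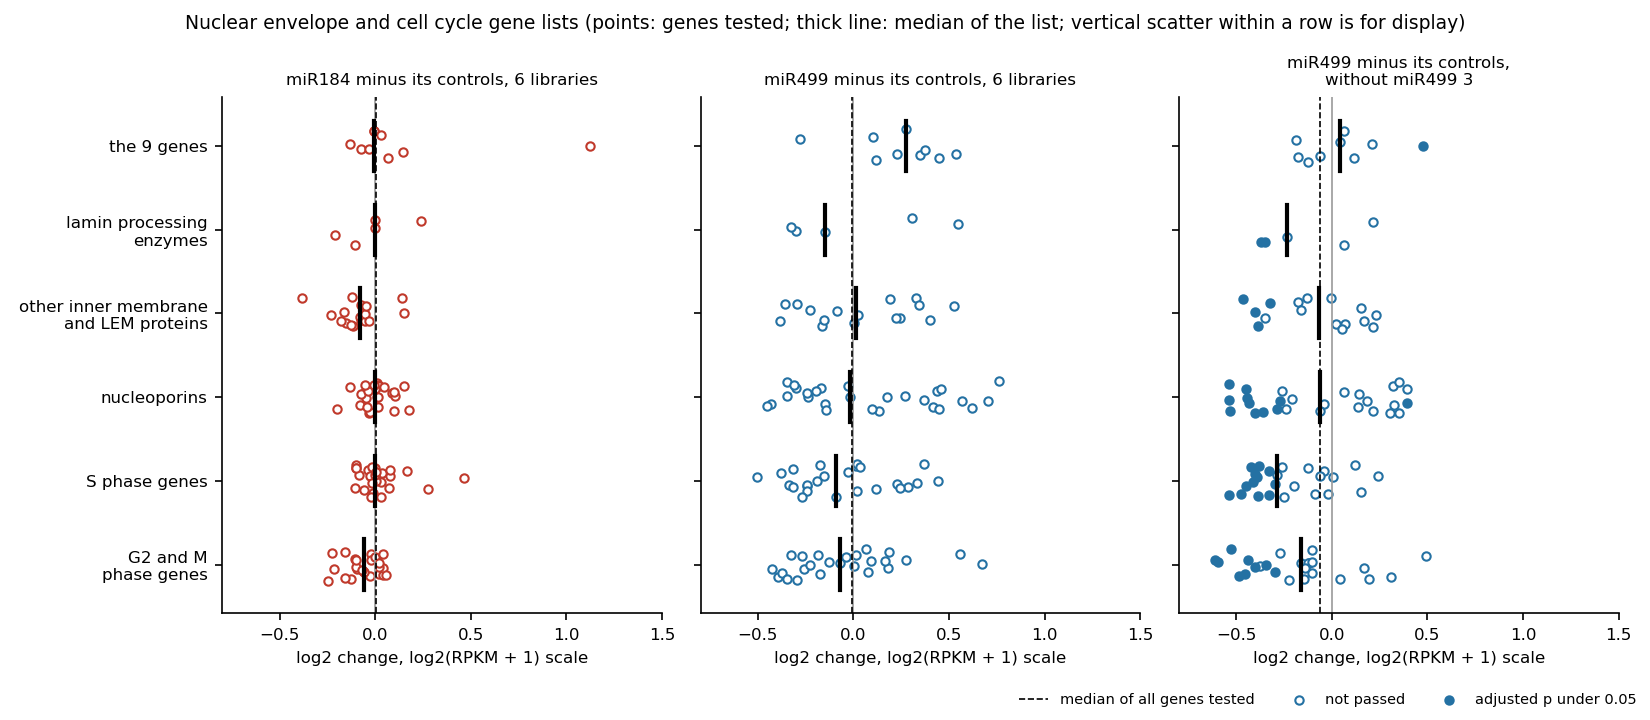
Log2 changes of the tested genes in 6 lists for miR184 (left), miR499 (middle) and miR499 without miR499 3 (right), with open points for genes that did not pass, filled points for an adjusted p under 0.05 by limma, a thick line at each list's median and a dashed line at the median of all genes tested. Lmnb1 is the lone point at 1.13 in the left panel, and in the right panel the S phase median is -0.29.

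The genes whose pattern was most like that of Lmnb1 were ranked over the 12 libraries, each table centred on its own mean, among 6541 other genes with a mean of at least 5 RPKM. The likeness is a Pearson r given as a description, and the libraries of a table share their depth and processing. Sec63, a gene of the protein channel of the endoplasmic reticulum, came first (r = 0.935), followed by the SUMO protease gene Senp2 (r = 0.921), Metrn (r = 0.905), the deubiquitinase gene Otud5 and 0610010F05Rik (r = 0.897 each). Since Lmnb1 was chosen for its miR184 libraries, a difference between miR184 and its controls is built into this ranking. The least alike were Nfkbia (r = -0.882), Il18, 5430427O19Rik, Il15 and Tmem219. Of the set itself, Emd was the nearest to Lmnb1 (r = 0.551, place 542), while Lbr (r = 0.425), Lmnb2 (r = 0.423), Sun1 (r = 0.394) and Tmpo (r = 0.278) were farther down, and Sun2 (r = -0.153) and Banf1 (r = -0.354) ran the other way. Both Emd and Lmnb1 had their highest level of each table in miR184 3 and miR499 3. Without miR184 3 the log2 change with miR184 was -0.09 for Emd and 1.03 for Lmnb1. No r was computed without these libraries.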

How the data were processed

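The authors deposited 2 tables of RPKM, per the file headers, each with 3 treated and 3 control libraries. Per the submitters' processing notes the genome build was mm10. Aligner, counter, annotation and strandedness were not given in the sources used here. Columns were matched to samples by title, and 0 columns of per-sample values were unused. Whole reads were recovered from RPKM for all 21134 genes above 0 (100%, within 0.01 reads). For 14845 of them the length used was the exon length of GENCODE M21. For the rest a length that gives whole reads was searched for, so the 100% is no check of the recovery. For Banf1, Tmpo and Sun2 the recovered lengths were 820, 6478 and 4969 bases. Their exon lengths in GENCODE M21 are 1496, 10998 and 5420 bases, so the exons counted for them differed. Intervals from read counts would cover counting error only.

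Treated libraries were set against their own table's controls with limma 3.58.1 (R 4.3.3, intensity trend, two-sided) on log2(RPKM + 1), which understates changes of low genes, for genes with a mean of at least 1 RPKM over the 6 libraries. P-values were adjusted by Benjamini-Hochberg over all genes tested. All 9 genes entered in both comparisons. In simulated data with 200 changed genes the test recovered 81% (miR184) and 55% (miR499) of changes of 1 log2 unit, with 10 and 6 unchanged genes called. The adjusted p depends on how many genes change, and with all libraries 0 genes passed in either real comparison. No simulation was made of a library set apart across many genes, such as miR499 3, the highest of 6 in 51.0% of genes. The recovery rates are thus not the power of the fits reported here.

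The genes and lists were chosen with earlier results of these data known. Named genes are the 9, the 2 smallest p of each envelope or cell cycle list in each comparison, and the 5 most and 5 least like Lmnb1; genes named for marker levels were picked after their values were seen. Alternatives were the pseudocount, the filter, the scaling, voom, 1 fit over 12 libraries, a replicate block and each library left out. Gene positions, exon overlaps and 3' UTRs came from GENCODE M21 (GRCm38), miRNAs from RefSeq, and figures from Python 3.11.15 with matplotlib 3.10.9.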

Additional observations from a re-analysis of the deposited data

How the results depend on the processing

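The log2 change of Lmnb1 with miR184 ranged from 1.01 to 1.21 over 14 alternatives. For miR184 the 124 values of the 9 genes under these alternatives all moved by less than 1 SD between replicates. This SD includes the spread due to miR184 3, so it is a wide measure. Without miR184 3, 5 of the 9 changes had the other sign, and Lmna went from 0.07 to 0.23. The number of genes passing in that comparison was 0 to 2 over the fits that leave out 1 library, and 2 with a replicate block on title numbers. Libraries of that table with the same title number had correlations of 0.06, -0.05 and -0.03 between their deviations. These values show no shared effect by title number, but they cannot exclude a pairing that the labels do not give. With miR499 the number passing was 0 to 1681 over the fits that leave out 1 library, 424 with a replicate block on the numbers that 4 libraries share in their descriptions, and 1376 without miR499 3 and with median-ratio scaling, a combination chosen after seeing the data. Of the 9 genes, 0 to 1 passed when 1 library was left out and 1 (Sun2) in that combination. Among their 124 values with miR499, 16 had the other sign than with all libraries, all in fits without miR499 3. The log2 changes with 1 library left out ran from -0.13 to 0.72 for Lmnb2, -0.061 to 0.49 for Lmna, -0.19 to 0.32 for Lbr, -0.18 to 0.38 for Tmpo and -0.49 to 0.064 for Banf1, with the low end (the high end for Banf1) without miR499 3. In that combination they were -0.094 for Lmnb2, -0.035 for Lmna, -0.15 for Lbr, -0.14 for Tmpo and 0.10 for Banf1. With the replicate block, which also lacks miR499 3 and control 6, they were -0.0011 for Lmnb1, -0.12 for Lmnb2, -0.0072 for Lmna, -0.20 for Lbr, -0.19 for Tmpo and 0.051 for Banf1. The cause was not tested. Sun2 was at 0.46 with the block (adjusted p = 0.104, limma), and 0 of the 9 genes passed there. The adjusted p of Sun2 ranged from 0.018 to 0.881 by limma. Lmna and, with miR499, Sun1 have no value under the filter at a mean of 5 RPKM, nor has Sun2 with miR184.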
